A study of Mus musculus with 3 samples.

Results

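The 69 histone genes described here were chosen by name among the 18730 protein-coding genes of the count tables. The tables mostly use newer gene symbols, so 60 genes were found by the names in the tables and 9 more (such as H2az1, H2ax and Macroh2a1) by their older name in GENCODE M21, matched by gene identifier. Of the 69, 56 are clustered replication-dependent genes, 11 are replacement genes and 2 are testis-type genes of the clusters (H1f6 and H2bc1). At least 1 read was counted for 66 of them. No read was counted for H2ac10, Hist1h2ao or H2bc1, and H1f6 had 2 counts in 1 tumour and none elsewhere. The RNA came from 3 mouse spleen lymphomas of the pBIC2 model, on the C57BL/6 strain, taken as B220+GFP+ cells by flow sorting with dead cells left out. All 3 carry the alleles p53F/F, Blimp1F/F and IKK2castopF/stopF, 1 copy of Cg1Cre/+ and the human BCL2 transgene Eu-hBCL2tg/+. Cre driven from the Cg1 locus acts in B cells that transcribe that constant region, so the deletions and IKK2ca depend on recombination in those cells, and the BCL2 transgene is driven by the immunoglobulin heavy chain enhancer. The study set such tumours against germinal centre B cells of immunised mice, which are not analysed here, so 1 group remains. The tumours are named 1, 2 and 3 in the order of their records, and the labels give no age and do not say whether each comes from its own mouse.

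Replication-dependent histone genes supply the bulk of H1, H2A, H2B, H3 and H4 protein while DNA is copied in S phase. Their messenger RNAs are the known exception to polyadenylation: the end is formed by cleavage just after a conserved stem-loop, which is bound by the stem-loop binding protein (SLBP), and most carry no poly(A) tail. Replacement histone genes, which lie outside the clusters, are made through the whole cell cycle as ordinary spliced or polyadenylated messages and are loaded by their own chaperones. The libraries were made after enrichment of RNA with oligo dT, so the 2 classes differ in how far this assay can see them.

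The stem-loop is the sequence that separates the classes, and it is shown here for genes on which the results below turn. The pattern searched was GG, any 2 bases, CTTTT, any base, AG, any 2 bases and CC, on the transcript strand of GENCODE M21 transcripts. It was present after the stop codon in 39 of the 56 replication-dependent genes and in 1 of the 11 replacement genes, H2ax. It started 21 to 54 bases after the stop codon in the 39, and 46 bases after it in H2ax. Some annotated transcripts without a match, such as those of H2ac13, H3c10 and H4c12, end at the stop codon. The search could find no stem-loop in those, so a missing match does not show that the gene lacks the stem-loop. Among all 21951 protein-coding genes of that annotation, 78 (0.355%) hold the pattern in any transcript. Below, the 16 bases of the stem-loop are in capitals, with 5 flanking bases on each side, written 5′ to 3′ on the gene's own strand in GRCm38.
H1f2 (chr13:23739507-23739532, plus strand): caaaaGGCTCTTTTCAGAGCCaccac
H2aw (chr11:58955167-58955192, plus strand): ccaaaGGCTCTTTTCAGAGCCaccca
H2bc8 (chr13:23571838-23571863, plus strand): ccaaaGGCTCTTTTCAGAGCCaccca
H2bc11 (chr13:22043633-22043658, plus strand): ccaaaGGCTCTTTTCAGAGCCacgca
H3c3 (chr13:23745042-23745067, minus strand): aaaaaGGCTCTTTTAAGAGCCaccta
H4c9 (chr13:22040961-22040986, minus strand): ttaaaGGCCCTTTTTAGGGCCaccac
H4c4 (chr13:23581945-23581970, plus strand): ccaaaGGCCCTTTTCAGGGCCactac
H2ax (chr9:44335235-44335260, plus strand): acaaaGGCCCTTTTAAGGGCCaccac
The form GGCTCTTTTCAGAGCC was the most frequent, in 22 genes of the H1, H2A, H2B and H3 families. The 10 H4 genes with a match and 5 flanking bases on each side had none of that form: 6 held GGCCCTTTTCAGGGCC, 2 held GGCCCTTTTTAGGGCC and 2 held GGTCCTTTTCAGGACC. These counts of forms leave out Hist1h4m, an H4 gene with a match whose annotated transcript ends 3 bases past the stem-loop. Many of these sequences are the same letter for letter, for example in H2aw and H2bc8.

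Total counts were 15576975, 16477997 and 17014022 in tumours 1, 2 and 3, so 3 counts in a library corresponded to 0.169 to 0.199 CPM (counts scaled to each library's total after TMM adjustment). All 10 B cell markers reached 10 CPM in every tumour. The 10 T cell markers summed to 197, 309 and 1325 CPM, with Cd3e at 0.00, 1.41 and 57.7 CPM, and the 10 macrophage and monocyte markers summed to 36.0, 406 and 180 CPM. Erythroid markers summed to 8.88, 20.4 and 11 CPM, plasma cell markers to 384, 265 and 184 CPM, and neutrophil markers to 0.199, 17.0 and 42.9 CPM, with 8 of 9 neutrophil markers at 0 in tumour 1. Few genes carried some of these sums. Cd68 alone was at 24.8, 325 and 162 CPM and Mzb1 at 155, 142 and 44.8 CPM. In tumour 1, Cd5 was at 82.0 and Lck at 68.7 CPM. The sums are therefore not amounts of other cells. Trp53 was at 23.1, 44.3 and 35.1 CPM, Prdm1 (Blimp1) at 7.09, 10.4 and 7.72 CPM and Ikbkb (IKK2) at 478, 348 and 401 CPM. No library without the alleles was analysed here, so these 3 values do not check the genotype.

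The first comparison asked how far the replication-dependent class lay below the replacement class in RNA enriched by oligo dT. Replication-dependent genes were seen at a low level in every tumour: all 56 together had 764, 695 and 1140 counts. As a share of the library this was 0.00490% for tumour 1, with a 95% Wilson interval from 0.00457 up to 0.00526. For tumour 2 it was 0.00422% (0.00392–0.00454), and tumour 3 had 0.00670% (0.00632–0.00710). The 11 replacement genes had 19932, 14704 and 17310 counts, or 0.128%, 0.0892% and 0.102% of the total. The intervals cover counting error only. In a bulk sample, fewer cells that make a histone message and less of it per cell cannot be told apart.

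Per exon length the gap was smaller but had the same direction. The summed RPKM (CPM divided by exon length) of the replacement genes were 10.3, 7.49 and 5.92 times those of the replication-dependent genes in tumours 1, 2 and 3. The median log2 RPKM over the 54 replication-dependent genes with a count was -0.58, -0.84 and -0.22, and over the 11 replacement genes 4.48, 3.94 and 4.49. The difference of the medians was -5.06, -4.79 and -4.71, or -4.85 ± 0.18 (SD, n = 3). An exact two-sided sign-flip permutation test gave p = 0.25, which is the smallest p that 3 tumours allow. The 2 classes were chosen with this difference in mind from the biology of their messages, so it is a description of its size. With coding length in place of exon length the difference was -6.48, and over members at a mean of 1 CPM it was -3.34.

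Few replication-dependent genes passed a fixed level. At 1 CPM or more in every tumour were 8 of 56 replication-dependent and 8 of 11 replacement genes, against 51.6% of all protein-coding genes. At 10 CPM or more in every tumour were 0 of 56 and 7 of 11, against 40.6% of protein-coding genes. The median of the mean RPKM was 0.447 for the replication-dependent class, 20.0 for the replacement class and 1.40 for protein-coding genes with a length. A mean of 1 CPM over the tumours was reached by 20 of the 69 genes, 11 replication-dependent and 9 replacement.

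**Figure D1:**
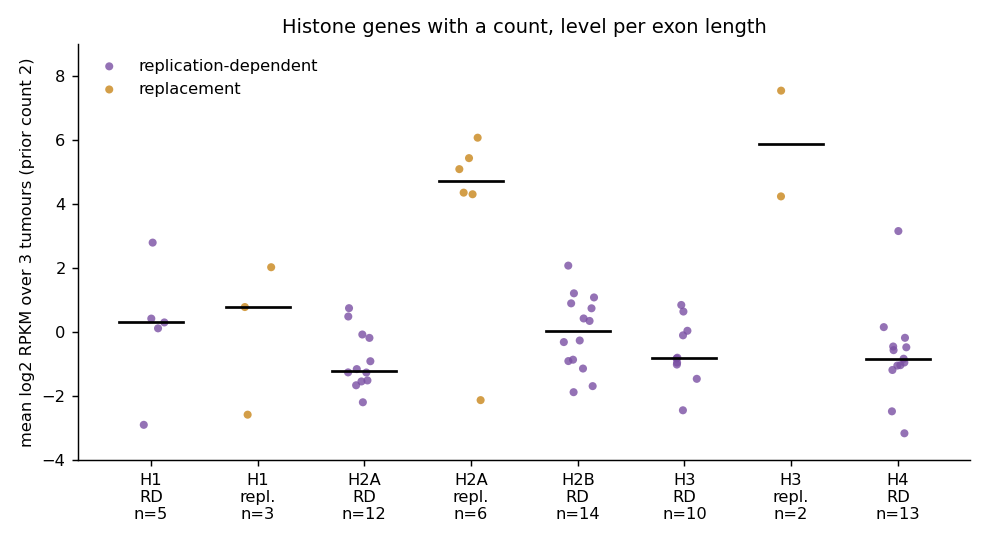
Mean log2 RPKM over the 3 tumours (prior count 2) of each histone gene with a count, by family, with replication-dependent (RD) and replacement (repl.) genes apart; each point is 1 gene and the black line is the median of its column. Replacement H2A and H3 genes lie above the replication-dependent genes of their family except Macroh2a2, while the H1 columns overlap.

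The gap was not the same in each family. Within H3 the summed RPKM of the 2 replacement genes was 43.4, 34.1 and 22.4 times that of the 10 replication-dependent genes in tumours 1, 2 and 3. Within H2A the 6 replacement genes stood at 35.6, 30.7 and 34.9 times the 14 replication-dependent genes. Within H1, the linker histones, the ratio was 0.545, 0.507 and 1.44, so the 5 replication-dependent H1 genes together were above the 3 replacement H1 genes in tumours 1 and 2 and below them in tumour 3. H2B and H4 have no replacement gene among the 69. The difference between families was not tested.

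Among the replacement genes, the H3.3 pair held most counts. H3f3b and H3f3a encode the same H3.3 protein, which is placed at transcribed genes and regulatory regions by the HIRA complex and at repeats by DAXX and ATRX. H3f3b was at 714, 536 and 445 CPM in tumours 1, 2 and 3, and alone gave 54.1%, 59.5% and 45.6% of all replacement counts. H3f3a was at 79.5, 53.8 and 67.0 CPM. Per length, H3f3b stood at 10.6, 11.7 and 7.82 times H3f3a, so the order was the same in all 3 tumours. H3f3b was highest in tumour 1 and H3f3a lowest in tumour 2, and neither gene differed by 2-fold between any tumours.

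The variants of H2A came next. Per length the order of the means was H2ax (74.4 ± 36.2 RPKM, SD, n = 3), H2az2 (45.4 ± 17.2), H2aj (34.8 ± 9.19), Macroh2a1 (20.6 ± 3.25) and H2az1 (20.0 ± 4.02). The SD is that between tumours. The ranges of neighbours in this order overlapped apart from those of H2aj and Macroh2a1 (24.6 to 42.3 and 16.9 to 22.6 RPKM). Compared within each tumour, H2ax was above H2az2, H2aj above Macroh2a1 and, by little, Macroh2a1 above H2az1. H2az2 was above H2aj in tumours 1 and 3 and below it in tumour 2. H2ax, whose protein is phosphorylated around DNA breaks, was at 145, 47.7 and 116 CPM. Its message is known in a stem-loop form and in a polyadenylated form, and its annotated transcript goes on 100 bases or more past the stem-loop printed above. H2az2 and H2az1 encode the 2 H2A.Z proteins, which SRCAP and p400 place at promoters. H2az2 was at 103, 46.5 and 73.2 CPM and H2az1 at 39.4, 27.2 and 39.7 CPM. H2az2 stood at 2.83, 1.86 and 2.0 times H2az1 per length, above it in every tumour.

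Macroh2a1, a large histone with a macro domain known from the inactive X chromosome, was at 152, 115 and 154 CPM. Its paralog Macroh2a2 had 9, 6 and 4 counts. H2aj, a variant known from senescent cells, was at 77.5, 68.8 and 45.0 CPM. Of the 9 replacement genes at a mean of 1 CPM, it and H3f3b were lowest in tumour 3.

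The replacement linker histones varied most. H1f0, known to build up in cells that stop dividing, had 151, 33 and 473 counts, or 10.0, 2.02 and 26.7 CPM. H1f10, the H1.X linker histone, had 2, 65 and 152 counts, which is 0.133, 3.99 and 8.57 CPM. The exact Poisson interval of its 2 counts in tumour 1 was 0.242 to 7.22, well under the 50.2 to 82.8 of tumour 2, so this gap was larger than counting error. The H1f10 difference of tumour 1 minus tumour 3 was -5.09 on the log2 CPM scale with a prior count of 2. Both genes were highest in tumour 3, where the summed T cell markers were also highest (1325 CPM against 197 and 309), and the part of T cells in these values was not tested. H1f8, the linker histone of the oocyte, had 0, 4 and 1 counts.

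**Figure D2:**
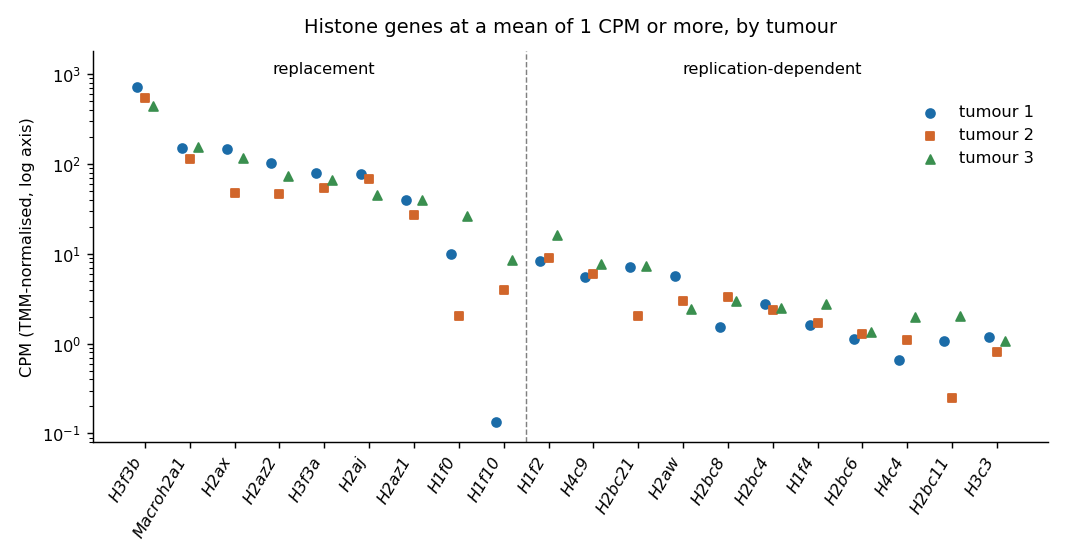
CPM on a log axis of the 20 histone genes at a mean of 1 CPM or more in tumours 1 (circles), 2 (squares) and 3 (triangles), ordered by mean within the replacement and replication-dependent classes. From H3f3b to H2az1 all values lie above 10 CPM, H1f10 drops to 0.133 CPM in tumour 1, and H1f2 in tumour 3 is the one replication-dependent value above 10 CPM.

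The replication-dependent counts were uneven over the genes. The 6 genes of highest mean CPM (H1f2, H4c9, H2bc21, H2aw, H2bc8 and H2bc4) held 61.1%, 60.6% and 60.7% of all replication-dependent counts in the 3 tumours. The other 50 shared 297, 274 and 448 counts. Per length the order of the means was H4c9 (8.82 ± 1.6 RPKM, SD, n = 3), H1f2 (7.16 ± 2.73), H2bc8 (4.22 ± 1.54), H2bc11 (2.40 ± 1.93), H2bc4 (2.21 ± 0.178) and H2bc21 (2.09 ± 1.14). Neighbours in that order had overlapping ranges over the tumours. Compared within each tumour, H4c9 was above H1f2, H1f2 above H2bc8 and H2bc8 above H2bc11. The order of H2bc11, H2bc4 and H2bc21 changed between tumours. Across the 56 genes Spearman's rho of the counts between tumours was 0.788 (1 with 2), 0.881 (1 with 3) and 0.838 (2 with 3), as a description, since genes share sequence and a fixed length.

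H1f2, a linker histone gene (chr13:23738808-23740367 in GRCm38, a single exon), was at 8.35, 9.07 and 16.1 CPM. It gave 65.3%, 69.5% and 74.8% of the counts of the 5 replication-dependent H1 genes. H1f4 was at 1.59, 1.72 and 2.76 CPM, H1f3 at 0.729, 0.797 and 1.13 CPM and H1f5 at 0.862, 0.797 and 0.958 CPM. These 4 genes were each highest in tumour 3. H1f1, the remaining one, had 19, 11 and 10 counts, highest in tumour 1.

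The 13 H4 genes encode 1 and the same protein, and most of their reads fell on 1 of them. H4c9 (chr13:22040636-22041362, a single exon) was at 5.50, 6.01 and 7.72 CPM, which was 64.8%, 65.8% and 60.9% of the H4 counts. H4c4 was at 0.663, 1.10 and 1.97 CPM, from 10, 18 and 35 counts. H4c14 followed at 0.464, 0.736 and 0.845 CPM and H4c3 at 0.663, 0.245 and 0.620 CPM. The 13 genes summed to 8.48, 9.13 and 12.7 CPM.

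The 14 H2B genes summed to 16.9, 13.4 and 21.5 RPKM, above the sums of the other replication-dependent families in every tumour. The 13 H4 genes came next, with 11.3, 12.2 and 16.7 RPKM. H2bc21 (chr3:96221119-96223738), with no stem-loop match in its 2620 bases, was at 7.09, 2.02 and 7.33 CPM from 107, 33 and 130 counts. H2bc4, also without a match in the transcript, was at 2.78, 2.39 and 2.48 CPM. H2bc8 was at 1.52, 3.31 and 2.99 CPM and was the only one of the 11 genes at a mean of 1 CPM that was highest in tumour 2. H2bc6 was at 1.13, 1.29 and 1.35 CPM. H2bc11, a short gene of 463 bases, was at 1.06, 0.245 and 2.03 CPM from 16, 4 and 36 counts. The tumours thus ranked differently from 1 H2B gene to the next.

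The 14 H2A genes were low apart from H2aw, of the small cluster on chromosome 11, which was at 5.70, 3.0 and 2.42 CPM. H2aw gave 86 of the 126 H2A counts in tumour 1, 49 of 77 in tumour 2 and 43 of 89 in tumour 3. H2ac8 was at 0.729, 0.429 and 0.507 CPM, H2ac15 at 0.530, 0.429 and 0.338 CPM and H2ac6 at 0.464, 0.307 and 0.507 CPM. The 10 H3 genes summed to 3.84, 3.99 and 5.02 CPM. Among them H3c3 was at 1.19, 0.797 and 1.07 CPM, H3c1 at 0.928, 0.613 and 0.620 CPM, H3c4 at 0.199, 1.23 and 0.676 CPM and H3c6 at 0.530, 0.123 and 0.564 CPM. H3c4 and H3c6 rest on 2 to 20 counts per tumour.

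By position, the 48 genes of the large cluster on chromosome 13 had 543, 591 and 924 counts, and the 5 genes of the cluster on chromosome 3 had 116, 47 and 153, of which H2bc21 gave 107, 33 and 130. The 2 genes on chromosome 11, H2aw and H2bu2, had 100, 55 and 60 counts, and H4f16 on chromosome 6 had 5, 2 and 3. The chromosome 13 cluster, with 48 of the 56 genes, held most replication-dependent reads in each tumour, but no more than its share of the genes.

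The next comparison was of the replication-dependent genes among themselves, by the annotated end of the transcript. In 20 genes the annotated transcript goes on 100 bases or more past the stem-loop, and 7 of these hold AATAAA close to the transcript end. The rest of the stretch was not searched for AATAAA. In 19 it ends within 100 bases of the stem-loop, and in 17 no match lies in the transcript. Some of these 17 transcripts end at the stop codon, H2ac13, H3c10 and H4c12 among them, so a stem-loop could not be found there. The median of the mean CPM was 0.691 in the 20 extended genes, 0.201 in the 19 that end near the stem-loop and 0.201 in the 17 without a match. Per length the medians were closer, at 0.523, 0.362 and 0.528 RPKM. Of the 8 genes at 1 CPM or more in every tumour, 6 were extended ones (H1f2, H1f4, H2aw, H2bc6, H2bc8 and H4c9) and the other two were H2bc4 and H2bc21, whose transcripts are 1156 and 2620 bases long. A longer annotated exon collects more reads at the same level, so these CPM values describe the annotation as well as the RNA. Across the 56 genes, Spearman's rho of mean CPM with exon length was 0.596, as a description.

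**Figure D3:**
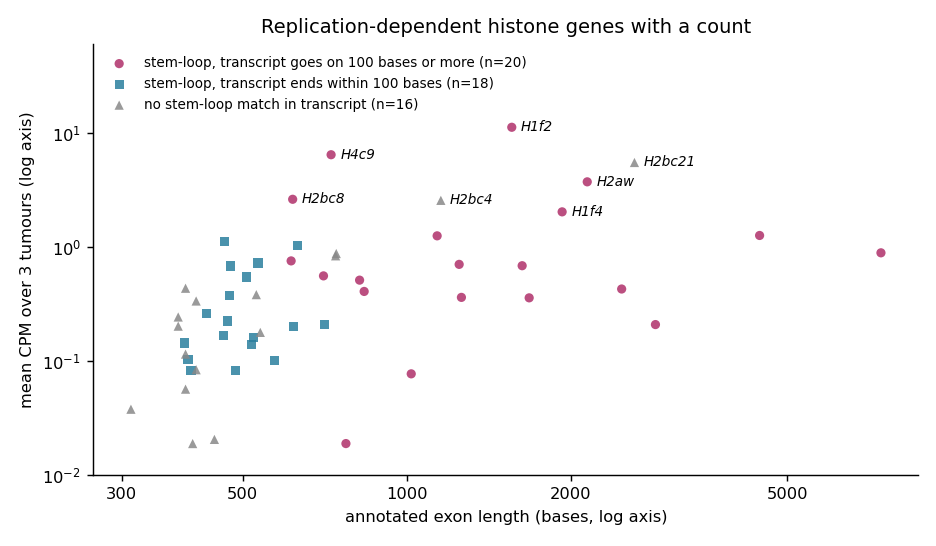
Mean CPM over the 3 tumours against annotated exon length, both on log axes, for the 54 replication-dependent genes with a count; circles have a stem-loop and a transcript that goes on 100 bases or more past it, squares a stem-loop near the transcript end, triangles no match. The 7 named genes are those at a mean of 2 CPM or more, none of them a square.

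Reads of 50 bases cannot always be placed among these genes. On average (median) 50.6% of the 50-base stretches of a replication-dependent transcript occur in no other annotated gene on either strand (range 6.00% to 100%), against 93.0% in the replacement class (64.6% to 100%). The 30 genes with 50% or more unique stretches had a median mean CPM of 0.710, and the 26 others 0.126. In RPKM the medians were 0.705 and 0.278. Of the 56, 38 encode a protein identical to that of another member. The 3 genes without a count include H2ac10 and Hist1h2ao, whose unique shares are 6.00% and 6.50%. No source used here says whether reads that match several places were counted. A low value of a gene with few unique stretches is therefore uncertain.

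Annotated neighbours overlap some members as well. All 14 replication-dependent H2A genes are overlapped on the opposite strand by another GENCODE M21 gene, and for 13 of them that gene is not a row of the tables. These stretches count as shared in the values above. H1f4 and H2bc6 overlap each other on the same strand, and H2aw lies over part of Trim17. The 17 overlapped genes summed to 11.2, 7.79 and 9.24 CPM and the 39 others to 39.4, 34.8 and 55.0 CPM. Among replacement genes 7, H1f0 and H1f10 among them, also have an overlapping gene. Whether the counting used strand is also not stated, so reads of both strands may not be told apart there.

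The rule did not use the promoters, and their motifs are given as a description; the difference between the classes was not tested. RefSeq promoters (GRCm38.p6, 250 bases before to 50 after the start) were matched by symbol for 58 of the 69 genes. Each motif was searched on both strands. The CCAAT box was present in 85.1% of the 47 replication-dependent promoters, against 37.4% of all 32851 promoters of that length. By family it was in every H1, H2A, H2B and H3 promoter and in 3 of 10 H4 promoters. TATAAA was in 59.6% against 13.6%, and the octamer ATTTGCAT, known from H2B promoters and immunoglobulin genes, in 23.4% against 1.74%. The octamer was in 5 of 12 H2B and 6 of 12 H2A promoters, genes of which many lie as divergent pairs, and in none of the H1, H3 or H4 promoters. AAACACA, known as the H1 box, was in 4 of 5 H1 promoters against 7.18% of all. Of the 10 replacement promoters, 70% held CCAAT, 10% TATAAA, 10% the octamer and 10% AAACACA.

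The 250 bases before the start of H1f2, with the highest mean CPM of the replication-dependent genes, and of H3f3b, with the highest of the replacement genes, are given for comparison, motifs in capitals. H3f3b holds 4 CCAAT, 1 octamer on the reverse strand and 1 TATAAA. H1f2 holds 1 CCAAT and 1 AAACACA.
H1f2 (chr13:23738557-23738806, plus strand): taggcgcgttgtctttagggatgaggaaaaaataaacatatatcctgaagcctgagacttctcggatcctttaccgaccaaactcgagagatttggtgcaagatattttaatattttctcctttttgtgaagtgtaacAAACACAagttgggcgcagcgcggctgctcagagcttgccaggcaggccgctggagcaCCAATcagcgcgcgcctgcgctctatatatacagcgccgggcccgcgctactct
H3f3b (chr11:116024505-116024754, minus strand): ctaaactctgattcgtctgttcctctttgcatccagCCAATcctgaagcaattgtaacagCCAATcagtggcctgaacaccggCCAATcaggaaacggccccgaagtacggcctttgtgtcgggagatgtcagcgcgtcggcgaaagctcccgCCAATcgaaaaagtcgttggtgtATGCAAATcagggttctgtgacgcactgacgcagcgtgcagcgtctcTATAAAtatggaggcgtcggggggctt
A match is a run of letters and not a measured binding site. No factor was measured in these libraries.

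The last comparison was between the tumours, with 1 library each, so a difference has no replicate check and no test. Tumour 2 was set against the others because proliferation genes were lowest there in an earlier analysis of the same data. The count of S phase genes was therefore foreseen and only describes the tumours. Tumour 2 was the lowest of the 3 for 18 of 22 genes of S phase, such as Mcm6 of the replicative helicase (349, 230 and 350 CPM) and Rrm1 of ribonucleotide reductase (361, 234 and 260 CPM), though not for Uhrf1 (299, 367 and 236 CPM), which binds newly copied DNA. Replacement genes at a mean of 1 CPM were lowest there in 6 of 9 cases (H1f0, H2ax, H2az1, H2az2, H3f3a and Macroh2a1) and replication-dependent genes in 4 of 11 (H2bc11, H2bc21, H2bc4 and H3c3), against 29.4% of all 11018 protein-coding genes at that level. The replication-dependent count stands near this background. The summed CPM of all 56 replication-dependent genes was 50.6, 42.6 and 64.3 in tumours 1, 2 and 3, so the sum was lowest in tumour 2. The 48 genes of the chromosome 13 cluster alone summed to 36.0, 36.2 and 52.1 CPM. By family, the H1, H3 and H4 sums were lowest in tumour 1 and the H2A and H2B sums in tumour 2. From tumour 1 to tumour 2, H2bc21 went from 107 to 33 counts and H2aw from 86 to 49. Replication-dependent genes were lowest in tumour 1 in 6 of 11 cases (background 38.3%), lowest in tumour 3 in 1 (32.1%), highest in tumour 2 in 1 (30.3%) and highest in tumour 3 in 7 (36.7%). Replacement genes were highest in tumour 1 in 5 of 9 cases (33%) and in tumour 2 in none. Without tumour 1, 8 of 10 replication-dependent and 7 of 9 replacement genes were lower in tumour 2 than in tumour 3, against 52.2% of protein-coding genes. Without tumour 3, 3 of 8 and 8 of 9 were lower in tumour 2 than in tumour 1, against 48.1%. Tumour 3 also had the highest sum of T cell markers (1325 CPM), whose part in these counts was not tested.

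The medians give the size of these differences. Against tumour 2 the median log2 CPM difference of tumour 1 was -0.10 over the 11 replication-dependent genes, 0.53 over the 9 replacement genes, 0.67 over the 22 S phase genes and -0.05 over the protein-coding genes. For tumour 3 against tumour 2 the medians were 0.38, 0.54, 0.44 and 0.03. The difference between the lists was not tested, and the genes were kept by a mean of 1 CPM over the same tumours.

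**Figure D4:**
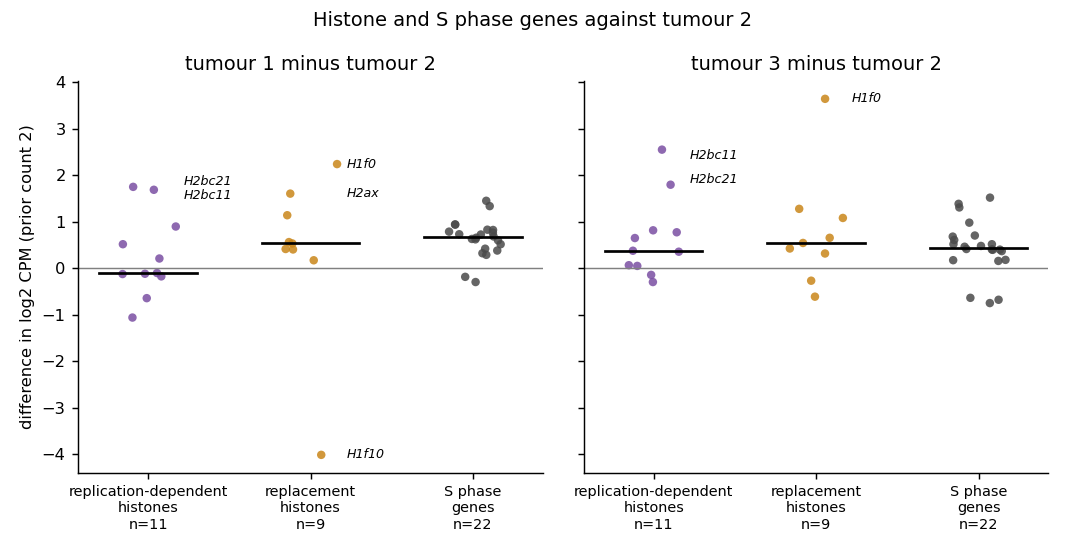
Difference in log2 CPM (prior count 2) of tumour 1 (left) and tumour 3 (right) from tumour 2, for the 11 replication-dependent and 9 replacement histone genes at a mean of 1 CPM or more and 22 S phase genes; each point is 1 gene and the black line is the median. Histone genes far from 0 are named, and the replication-dependent median lies at -0.10 on the left and 0.38 on the right.

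Of the 20 genes at a mean of 1 CPM, 9 were 2-fold or more apart between some pair of tumours, against 39.2% of protein-coding genes. The 5 replication-dependent ones were H2aw, H2bc11, H2bc21, H2bc8 and H4c4, and the 4 replacement ones H1f0, H1f10, H2ax and H2az2. H2bc21 and H2bc11 were low in tumour 2 against both others: H2bc21 by 1.75 (tumour 1 minus 2) and 1.80 (tumour 3 minus 2), H2bc11 by 1.69 and 2.55, in log2 CPM. The Poisson intervals of H2bc21 were 87.7 to 129, 22.7 to 46.3 and 109 to 154 counts, so tumour 2 lay apart by more than counting error. H2bc11 had 16, 4 and 36 counts. Its interval in tumour 2 ended at 10.2 counts, above the lower limit of 9.15 in tumour 1. Its difference of tumour 1 minus 2 was therefore not shown to exceed counting error. The interval of tumour 3 started at 25.2 counts and lay apart from that of tumour 2. Only 40.6% of the 50-base stretches of H2bc11 are unique, so its low value is also uncertain. Higher by 2-fold or more in tumour 1 than in tumour 2 were 2 of 11 replication-dependent genes and 3 of 9 replacement genes, H1f0, H2ax and H2az2 (background 9.32%). Higher in tumour 3 than in tumour 2 were the same 2 and 3, with H1f10 in place of H2az2 (12.6%). Higher in tumour 2 than in tumour 1 was 1 gene of each class, H2bc8 and H1f10 (14.8%), and higher in tumour 3 than in tumour 1 were H4c4, H1f0 and H1f10 (17.3%). Only H2aw was 2-fold higher in tumour 1 than in tumour 3 (10.2%), and none of the 20 was 2-fold higher in tumour 2 than in tumour 3 (9.32%). With so few genes these counts are given as they stand. H2aw was highest in tumour 1, with a log2 difference of 1.19 from tumour 3, and H2bc8 lowest there, with -1.06 from tumour 2.

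The spread between tumours is given by the SD of log2 CPM. The median SD of log2 CPM was 0.51 over the 11 replication-dependent genes, 0.41 over the 9 replacement genes and 0.42 over all protein-coding genes at a mean of 1 CPM. Genes of low level vary more here: at a mean of 1 to 3 CPM the median SD over 991 protein-coding genes was 1.19, and over the 7 replication-dependent genes of that level 0.41. At a mean of 3 to 15 CPM the medians were 0.68 over 2167 protein-coding genes and 0.56 over 4 replication-dependent ones. H2bc4 (0.11) and H2bc6 (0.12) varied least of the 11 and H2bc11 (1.30) most. Without tumour 3 the replication-dependent median SD fell to 0.14.

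The factors that make and use histone messages were well measured. Of the 18 genes listed for histone mRNA 3′ processing and decay, 17 reached 10 CPM in every tumour, against 40.6% of all protein-coding genes. Slbp, which binds the stem-loop, was at 146, 84.3 and 112 CPM, lowest in tumour 2. The summed replication-dependent histone CPM was 50.6, 42.6 and 64.3, also lowest in tumour 2. That sum was highest in tumour 3 and Slbp in tumour 1. A link between Slbp and the histone sum was not tested, and the sum over the chromosome 13 cluster was not lowest in tumour 2. The highest in that list were Srrt (575, 526 and 422 CPM), which links the cap complex to 3′ end formation, Sympk (380, 233 and 220 CPM), a scaffold of the cleavage complex, and Tut4 (163, 311 and 293 CPM), a uridyl transferase of RNA decay. Zfp473, known to bind the histone mRNA complex, was the one below 10 CPM in every tumour, at 2.58, 3.43 and 8.0 CPM. Npat, the S phase activator of histone transcription, was at 60.05, 60.6 and 54.1 CPM.

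All 16 genes of poly(A) site cleavage and polyadenylation reached 10 CPM in every tumour (background 40.6%, as for the lists that follow), led by Cpsf1 (382, 334 and 216 CPM), Cpsf6 (385, 200 and 155 CPM) and Papola (226, 178 and 263 CPM), the poly(A) polymerase. All 13 replication-coupled chaperones did so too, with Nap1l1 at 591, 376 and 336 CPM, Ssrp1 of the FACT complex at 366, 434 and 221 CPM and Mcm2, which carries H3 and H4 at the fork, at 375, 167 and 205 CPM. So did all 15 chaperones and remodellers of replacement histones, with Ep400 at 438, 443 and 391 CPM, Cabin1 of the HIRA complex at 246, 459 and 202 CPM and Atrx at 234, 251 and 322 CPM. Lowest in tumours 1, 2 and 3 were 5, 7 and 6 of 18 processing genes and 3, 3 and 10 of 16 poly(A) genes. For the 13 replication-coupled chaperones the counts were 1, 5 and 7, and for the 15 of replacement histones 1, 6 and 8. Of all protein-coding genes at a mean of 1 CPM, 38.3%, 29.4% and 32.1% were lowest in tumours 1, 2 and 3. The processing list lay near these shares, and the difference between the lists was not tested.

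A short list of other RNAs without a poly(A) tail was set beside the histone genes. The 9 measured genes of that list summed to 3.65, 1.78 and 1.69 CPM, and only Rn7sk reached a mean of 1 CPM, with 42, 6 and 19 counts. Scarna2 was at 0.398, 0.368 and 0.113 CPM and Rpph1 at 0.199, 0.184 and 0.225 CPM. The 56 replication-dependent genes summed to 50.6, 42.6 and 64.3 CPM in the same libraries. The list is only part of such RNAs. Small nuclear and nucleolar RNA genes together held 0.0128%, 0.0157% and 0.0119% of counts in tumours 1, 2 and 3. These shares were above the replication-dependent 0.00490%, 0.00422% and 0.00670%. Several of the RNAs without a tail are short and can also be lost by size, which was not tested, so the values are given side by side only.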

How the data were processed

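RNA of sorted B220+GFP+ cells was sequenced as single-end reads of 50 bases after oligo dT enrichment, per the labels. The authors deposited unnormalised gene counts. Per the submitters' processing notes, FastQC, STAR 2.5.2b and featureCounts 1.6.0 were used on mm10. Which annotation release, strand setting and treatment of multiply mapped reads applied is not given in the sources used here.

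The members and gene lists were chosen with earlier results of these data known. Named genes were all replacement members at a mean of 1 CPM, the 4 replication-dependent members of highest mean CPM in each of 5 families, the 6 of largest SD, members with no count, and the 3 highest of each pathway list; H1f1, H1f6, H1f8, Macroh2a2, H2bu2, H4f16, Slbp, Npat, Zfp473, Cd3e and the 3 targeted genes were named outside it, with their values seen. Another 13 histone genes of GENCODE M21 are not analysed here.

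CPM used TMM factors (0.969, 0.990 and 1.04; edgeR 4.0.16, R 4.3.3) and log2 CPM a prior count of 2. RPKM used GENCODE M21 exon lengths, to which 37536 of 37646 gene identifiers matched. Statistics and figures were made in Python 3.11.15 with SciPy 1.17.1, pandas 2.3.3, NumPy 2.4.6 and matplotlib 3.10.9. The 2-fold calls were run on simulated counts with larger changes, well-counted changed genes and less spread than these data. Calls on genes of few counts were therefore not checked. The libraries form 1 group. The labels do not say that they come from separate animals, so their spread may not be that between animals, and its technical part is not known. Reads carry no molecular identifiers. Alternatives were DESeq2 1.42.0 size factors, total counts, other filters, prior counts and lengths, members without identical proteins, and each library left out.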

Additional observations from a re-analysis of the deposited data

How the results depend on the processing

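No paired analysis was possible because the libraries form 1 group. A count or spread was taken as unchanged within 1.5 times its main value, other untested values within 1 SD, and the class difference by its direction alone; 81 alternative values were unchanged and 16 moved. All 150 alternative means of single genes stayed within 1 SD. The class difference in median log2 RPKM kept its direction under every alternative run, from -6.86 in CPM without length and -6.48 with coding length to -3.34 for members at a mean of 1 CPM, -3.18 for the names in the tables and -2.95 for summed RPKM; p could not go below 0.25 with 3 tumours or 0.5 with 2.

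Replication-dependent genes lowest in tumour 2 numbered 1 of 3 at a mean of 5 CPM, 22 of 54 at 1 count in any library, 1 of 4 without identical proteins and 8 of 10 without tumour 1 (3 to 8 with tumour 1 or 3 left out; without tumour 2 there is no such count). Genes 2-fold apart numbered 4 of 11 at a mean of 5 CPM, 30 of 66 at 1 count, and 4 to 6 with a tumour left out. The main counts were 4 of 11 lowest in tumour 2 and 9 of 20 apart. A filter changes the number of genes kept, so such a count can move while its share does not. With 2 tumours left, 52.2% (without tumour 1) or 48.1% (without tumour 3) of protein-coding genes were lower in tumour 2. Shares over all genes at the other filters are not given here. Without members of identical protein the shares of counts were 0.00284% (replication-dependent) and 0.0434% (replacement, without H3f3a and H3f3b), and 4 replication-dependent genes reached 1 CPM in every library. The replication-dependent spread was 0.14 to 0.53 with a tumour left out. The cause was not tested where fewer genes or samples do not give it.

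An added alternative, chosen after seeing the data, kept only members found by the names in the tables: the replacement share was then 0.0646%, 2 replacement genes reached 10 CPM in every library, their spread was 1.09 and 2 of 4 were lowest in tumour 2. Members with 50% or more unique stretches, also added, changed none. Depth limits the replication-dependent genes under a mean of 1 CPM.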

Other observations

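The tables hold 11 further rows with histone names that are not protein-coding, and these were left out of the 69. They had 51 counts over the 3 tumours together. The 7 processed pseudogenes gave 39 of them, the 3 unprocessed pseudogenes 3, and the antisense gene H3f3aos 9. Macroh2a3, annotated as a processed pseudogene, was the highest, with 2, 9 and 12 counts in tumours 1, 2 and 3.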
